A study of Saccharomyces cerevisiae with 12 samples.

Results

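The comparison set the highest doxycycline dose against no drug in budding yeast whose RAP1 gene is under a tetracycline-repressible promoter. Genes were taken where the level was above 0 in both groups and at least 5 FPKM in the higher of them, which held for 4988 of the 5085 genes listed. FPKM is a level per transcript length and sequencing depth. All groups shared 1 haploid MATa strain, TH_5234, which carries URA3::CMV-tTA and, at RAP1, pRAP1::kanR-tetO7-TATA, besides his3-1, leu2-0 and met15-0, so the control carried the regulated RAP1 promoter too. The CMV promoter drives tTA, a tetracycline-controlled activator that doxycycline releases from the tetO sites. Cells were in log phase, polyA RNA was sequenced, and the comparison used 6 of the 12 samples, 3 controls without doxycycline and 3 samples at 0.5 µg/mL. The labels leave unstated whether a group's samples are independent cultures, so the q-values may reflect technical spread alone. The authors deposited 1 pooled level per gene and group, so no SD can be given and the depth of the libraries is unknown. Throughout, a gene that rose or fell is one with a q-value below 0.05 in the authors' deposited table, and a log2 ratio is the log2 of the level at 0.5 µg/mL over that in the control.

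Rap1 is an essential DNA-binding protein of budding yeast. It binds the promoters of ribosomal protein genes and of glycolytic genes as an activator, coats telomere repeats, and helps to silence the spare mating-type loci. In this organism, genes of ribosome production and genes of the environmental stress response are known to move in opposite directions under many stresses and when growth slows. Ribosome assembly genes often carry PAC and RRPE elements, stress genes carry the element bound by Msn2 and Msn4, chaperone genes the element bound by Hsf1, amino acid synthesis genes the element bound by Gcn4, and proteasome genes the element bound by Rpn4.

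The upstream sequences of 6 genes show elements of this kind in gene groups described below. Each gene is the member of its list with the largest called change among those that hold the element. The sequences are bases 300 to 81 before the start codon, 5′ to 3′ on the coding strand, from the RefSeq R64 reference, and the capitals mark the element on either strand. The 80 bases next to the start codon are not shown. RPL26A, a large-subunit ribosomal protein gene at chrXII:819012-819231 on the plus strand, holds a Rap1 core (ACCCNNACA). HSP104, the protein disaggregase gene, at chrXII:88323-88542 on the plus strand, holds a heat-shock element of 3 alternating GAA and TTC units. TSL1, a subunit gene of trehalose synthase, at chrXIII:70324-70543 on the plus strand, holds 3 stress elements (CCCCT). DBP2, an RNA helicase gene of ribosome assembly, at chrXIV:413339-413558 on the plus strand, holds a PAC element (GATGAG). ARG1, the argininosuccinate synthetase gene, at chrXV:218911-219130 on the plus strand, holds a Gcn4 element (TGACTC). RPN12, a proteasome lid gene, at chrVI:252205-252424 on the plus strand, holds the Rpn4 element (GGTGGCAAA).
RPL26A: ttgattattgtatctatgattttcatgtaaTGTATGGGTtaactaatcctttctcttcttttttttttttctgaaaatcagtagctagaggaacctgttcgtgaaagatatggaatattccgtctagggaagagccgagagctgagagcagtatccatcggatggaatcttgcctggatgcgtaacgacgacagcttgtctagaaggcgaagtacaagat
HSP104: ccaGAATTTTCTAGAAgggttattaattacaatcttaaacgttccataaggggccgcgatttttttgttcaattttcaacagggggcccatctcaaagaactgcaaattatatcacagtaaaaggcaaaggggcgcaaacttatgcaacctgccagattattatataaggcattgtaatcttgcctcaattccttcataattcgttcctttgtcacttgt
TSL1: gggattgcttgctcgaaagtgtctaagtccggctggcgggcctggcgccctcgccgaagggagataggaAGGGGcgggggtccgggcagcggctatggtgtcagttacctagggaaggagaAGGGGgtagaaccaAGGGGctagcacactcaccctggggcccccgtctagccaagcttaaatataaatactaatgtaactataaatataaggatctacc
DBP2: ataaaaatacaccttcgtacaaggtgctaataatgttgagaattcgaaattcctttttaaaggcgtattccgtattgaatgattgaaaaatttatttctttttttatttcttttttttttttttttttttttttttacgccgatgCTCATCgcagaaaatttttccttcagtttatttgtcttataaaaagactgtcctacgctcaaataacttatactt
ARG1: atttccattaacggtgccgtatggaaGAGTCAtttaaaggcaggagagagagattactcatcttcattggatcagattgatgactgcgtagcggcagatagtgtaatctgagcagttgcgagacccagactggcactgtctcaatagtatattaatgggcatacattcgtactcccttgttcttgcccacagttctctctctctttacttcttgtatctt
RPN12: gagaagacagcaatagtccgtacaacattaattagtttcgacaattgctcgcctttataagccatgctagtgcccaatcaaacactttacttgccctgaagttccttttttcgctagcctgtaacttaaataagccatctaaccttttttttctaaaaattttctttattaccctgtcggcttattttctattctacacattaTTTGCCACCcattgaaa

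These 6 genes span the responses described below. The 2 that belong to stress protection rose, HSP104 from 85.9 to 1046 FPKM and TSL1 from 41.7 to 271 FPKM. RPN12 rose by less, from 394 to 584 FPKM. The genes of growth fell, RPL26A from 663 to 209 FPKM, DBP2 from 859 to 213 FPKM and ARG1 from 204 to 31.4 FPKM.

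RAP1 itself fell, from 31.5 to 22.0 FPKM (log2 ratio -0.52, q = 0.00764 in the authors' deposited table). That is a smaller fall than the median of the genes that fell (-0.73), and it was -0.22 from the median of all genes. Rap1 protein was not analysed here. LEU2 and MET17 (MET15), both deleted in the strain, were listed at 0 in both groups. All 7 fixed markers of MATa cells were present, of which 6 fell and 0 rose. Their summed level was 183717 FPKM in the control and 187231 FPKM with doxycycline, and the member that did not fall, MFA1, was 121867 FPKM in the control and 143883 FPKM with doxycycline. The 6 alpha-cell markers summed to 421 and 425 FPKM and the 10 meiotic markers to 176 and 151 FPKM, and none of the 23 was listed at 0. Of the alpha-cell markers 1 rose (SAG1) and 1 fell, and of the meiotic markers 2 rose (IME2 and REC8) and 3 fell. The part of these markers in the results was not tested. In such bulk samples, fewer cells of a type and less RNA per cell cannot be told apart.

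Most genes were lower with doxycycline. Of the 4988 genes, 375 rose (7.52%), 1950 fell (39.1%) and 2663 were not called, so that 46.6% were called in either direction. The log2 ratio had a median of -0.30, which is a level 19.0% below the control. Its quartiles were -0.64 and 0.02, its 5th and 95th percentiles -1.24 and 0.64, and its full range -3.34 to 3.61. In 3684 genes (73.9%) the level was below that of the control. Summed over the table the levels came to 1944489 FPKM in the control and 1669274 FPKM with doxycycline, a log2 ratio of -0.22. A shift of the RNA and one of the scaling cannot be told apart in these levels.

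**Figure D1:**
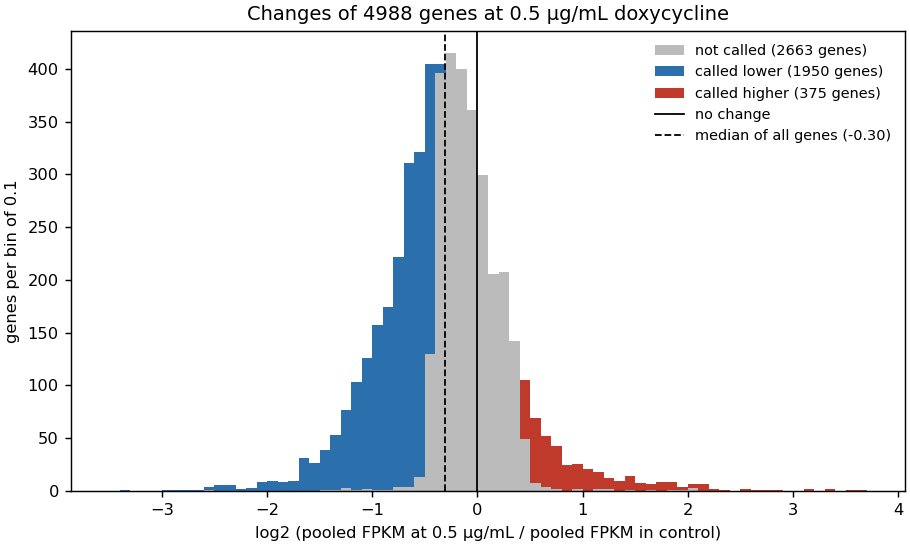
Number of genes per bin of 0.1 in the log2 ratio of pooled FPKM at 0.5 µg/mL over control, stacked by the authors' call (red higher, blue lower, grey not called). The dashed line is the median of all 4988 genes at -0.30 and the solid line no change; the called falls form a broad left shoulder and the called rises a thin tail that reaches 3.61.

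Falls were many and moderate, and the largest rises were few. The genes that rose had a median log2 ratio of 0.77 and those that fell -0.73, and the smallest called changes were 0.41 and -0.39. Changes of at least 2-fold were found in 133 genes upward (2.67%) and 513 downward (10.3%). Counted from the median of all genes, 226 (4.53%) were at least 2-fold higher and 205 (4.11%) at least 2-fold lower. No called gene changes direction when the median is subtracted, since each called change is larger than the shift. Called changes of at least 4-fold numbered 23 upward and 31 downward. Of the genes past 2-fold, 20 were not called, and 11 of these are tRNA genes, such as SUF17 at 123 FPKM in the control and 514 FPKM with doxycycline and SUF1 at 51.9 FPKM in the control and 211 FPKM with doxycycline. Of 23 tRNA genes above the level minimum, 0 were called by Cuffdiff. Unadjusted p-values were not used here. The libraries were made from polyA RNA, which mature tRNA lacks.

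The shift was much the same from weakly to strongly expressed genes. In 10 classes of genes by mean level, the median log2 ratio lay between -0.37 and -0.24. The most abundant class had wider quartiles, -0.82 and 0.16, and 11.8% of its genes rose. Short genes had a median nearer to 0. Among 5 classes by coding length, the shortest (78 to 669 bases) had a median of -0.17 and 27.0% of its genes fell. The longest (2172 to 14733 bases) had a median of -0.36 and 43.7% fell. Without the ribosomal protein genes, most of which are short, the shortest class had a median of -0.12.

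At the level minimum, the genes just outside were MAN2 (3.64 and 4.70 FPKM), YSW1 (4.87 and 3.35 FPKM) and RRT16 (4.87 and 4.74 FPKM), in control and doxycycline. Those just inside were THI5 (3.91 and 5.02 FPKM), HED1 (4.42 and 5.05 FPKM) and SPO23 (5.13 and 2.38 FPKM), of which SPO23 was called lower. The 97 genes left out comprise 20 listed at 0 in both groups, 9 listed at 0 in 1 group and 68 under the minimum in both.

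Protein-folding genes held the largest rises. Of the 42 measured heat-shock chaperone and co-chaperone genes above the level minimum, 28 rose and 3 fell, against 7.52% and 39.1% of all genes, and their median log2 ratio was 1.23 against -0.30. HSP32, under the minimum, completes the list of 43. HSP104, the disaggregase, and HSP82, the inducible Hsp90, rose 12.2-fold and 12.1-fold. HSP82 went from 81.4 to 982 FPKM, while its near-identical constitutive copy HSC82 went from 413 to 1451 FPKM, and reads of this pair may be shared in the counting. The cytosolic Hsp70 genes SSA1 (from 242 to 1744 FPKM) and SSA2 (from 266 to 1533 FPKM) rose, with the same reservation for this pair. The more distinct SSA4 rose less (from 73.2 to 198 FPKM), and SSA3 was not called (61.9 FPKM in the control and 55.0 FPKM with doxycycline).

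Factors that hold or sort misfolded proteins stood beside them. BTN2, which gathers misfolded proteins into deposits, rose from 30.8 to 316 FPKM, and its relative CUR1 from 34.6 to 169 FPKM. The small heat-shock protein gene HSP42 rose from 115 to 1162 FPKM and HSP26 from 492 to 1315 FPKM. HSP12, a membrane-stabilising stress protein, was not called (599 FPKM in the control and 625 FPKM with doxycycline). Co-chaperones of Hsp70 and Hsp90 went different ways. STI1, which links both chaperones, had a log2 ratio of 2.18, the J-protein gene SIS1 2.03, the nucleotide exchange factor gene SSE2 2.51 and the Hsp90 activator gene AHA1 1.31. The Hsp90 co-chaperone genes CNS1 and CPR7 fell (-0.88 and -0.46), as did the J-protein gene CAJ1 (-0.63).

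Several mitochondrial members of the list rose too. HSP78, the mitochondrial disaggregase gene, went from 19.0 to 164 FPKM and the J-protein gene MDJ1 from 57.4 to 181 FPKM. HSP60 (0.87), HSP10 (0.70) and the Hsp70 gene SSC1 (0.69) rose by less, and the exchange factor gene MGE1 was not called (-0.37). Of 8 genes of chaperones that serve new chains on the ribosome 0 rose and 3 fell (37.5%, near the 39.1% of all genes), with the ribosome-bound Hsp70 gene SSB1 going from 1877 to 976 FPKM. Of 16 genes of the cytosolic chaperonin and prefoldin, 0 rose and 2 fell (CCT7 and CCT4), at a median of -0.26. In the endoplasmic reticulum, 3 of 19 folding genes rose and 5 fell. Those that rose were the Hsp70 gene KAR2 (from 315 to 544 FPKM), ULI1 and HAC1, the transcription factor gene of the unfolded protein response.

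Chaperone genes with a heat-shock element had the larger rises. The element was found within 300 bases of the start codon in 11 of 42 members (26.2%) and in 0.901% of all genes with such a window. The 11 had a median log2 ratio of 2.18 and 10 of them rose. The 31 without it had a median of 0.66 and 18 rose. Over the table the 3-unit element was in 4.04% of genes that rose and 0.77% of those that fell. The 100 largest called rises held it in 8 cases and the 100 largest called falls in 5. A shorter match of only 2 units is common, at 22.6% of all genes, and was found in 24.5% of the genes that rose and 23.6% of those that fell. Among the 100 largest called rises it was in 36, and among the 100 largest called falls in 26.

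**Figure D2:**
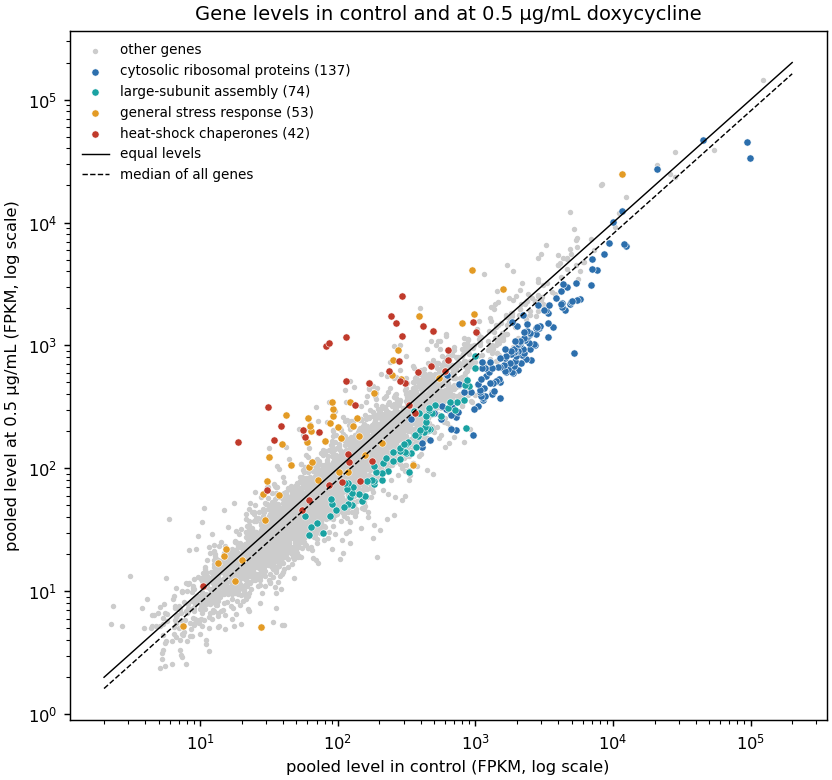
Pooled FPKM of each gene in control (x, log scale) and at 0.5 µg/mL doxycycline (y, log scale), with 4 gene lists coloured and all others grey. Ribosomal protein and large-subunit assembly genes lie below the dashed median line at high and middle levels, while chaperone genes such as HSP104 (85.9 to 1046 FPKM) rise from middle levels to the range of abundant genes.

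General stress genes rose broadly. Of 53 measured members, 37 rose and 4 fell, at a median of 0.93. PNC1, the nicotinamidase gene, went from 392 to 1752 FPKM, and DDR2, a classic stress-response gene, from 948 to 4114 FPKM. The cytosolic catalase gene CTT1 rose from 31.4 to 123 FPKM. HOR7, already abundant, rose from 11682 to 24604 FPKM. The 4 that fell were RCK1, a kinase gene of the oxidative stress response (from 27.4 to 5.09 FPKM), the mitochondrial aldehyde dehydrogenase gene ALD4 (from 349 to 107 FPKM), GND2 and PHM7. The stress element was present in 40 of the 53 upstream windows (75.5%) and in 21.6% of all. Across the table it was in 52.0% of genes that rose, 22.9% of those not called and 14.0% of those that fell. Of the 100 largest called rises, 58 hold it.

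Reserve carbohydrate genes mostly rose. Of 22 trehalose and glycogen genes 15 rose and 2 fell (median 0.69). Among the trehalose synthase genes, TPS1 rose from 254 to 761 FPKM, TPS2 from 90.5 to 344 FPKM and TSL1 as given above. The trehalase gene NTH1, which breaks the sugar down, rose as well, from 123 to 344 FPKM. Phosphoglucomutase showed opposite copies, with PGM2 at a log2 ratio of 2.08 and PGM1 at -0.76. On the glycogen side the phosphorylase gene GPH1 (1.47), the synthase gene GSY2 (1.10) and the branching enzyme gene GLC3 (0.82) rose, and PCL10, a cyclin of the kinase that inhibits glycogen synthase, fell (-0.50).

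Antioxidant genes moved both ways. Of 36 genes, 12 rose and 4 fell (33.3% and 11.1%, against 7.52% and 39.1% of all genes), at a median of 0.15. The peroxiredoxin gene AHP1 rose from 1695 to 4534 FPKM, and the glutaredoxin genes GRX1 and GRX2 rose to log2 ratios of 0.93 and 0.98. GRX4, a glutaredoxin of iron sensing, fell (-0.66), and SKN7, a transcription factor gene of the oxidative stress response, fell from 72.6 to 37.7 FPKM. YAP1, the main oxidative stress activator gene, was not called (127 FPKM in the control and 163 FPKM with doxycycline).

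Protein breakdown genes stood above the median of all genes, with few calls. Of 45 proteasome genes 8 rose and 0 fell, at a median of 0.32. With q below 0.01 in place of 0.05, 3 rose and 0 fell. RPN4, the gene of its transcription factor, rose from 125 to 244 FPKM, the assembly factor gene UMP1 from 551 to 938 FPKM and the base ATPase gene RPT3 from 312 to 451 FPKM. The Rpn4 element was in 28 of the 45 windows (62.2%) and in 1.32% of all genes, and 5 of those 28 genes rose, as did 3 of the 17 without it. Of 34 ubiquitin genes 5 rose and 5 fell (14.7% each way, against 7.52% and 39.1% of all genes). The polyubiquitin gene UBI4 (from 255 to 539 FPKM) and the conjugating enzyme genes UBC5 (from 162 to 386 FPKM) and UBC4 (from 1451 to 2267 FPKM) rose, while RPL40A and RPL40B, which encode ubiquitin fused to a ribosomal protein, fell (from 4161 to 2791 FPKM and from 1310.1 to 656 FPKM).

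Of 35 autophagy genes 5 rose and 2 fell (14.3% and 5.71%, against 7.52% and 39.1% of all genes). ATG8, whose protein coats the autophagosome membrane, went from 181 to 469 FPKM, the cargo receptor gene ATG19 from 39.8 to 85.8 FPKM and the kinase gene ATG1 from 11.7 to 20.6 FPKM. The other members that rose were ATG3 and ATG2. Of the 25 genes of the vacuolar proton pump and proteases 1 rose (4%) and 3 fell (12%). The protease gene PRB1 rose (0.62), and the pump subunit genes VMA7, VMA2 and VMA6 fell (-0.71, -0.68 and -0.60).

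Cell wall genes moved both ways. Of 45, 13 rose and 7 fell (28.9% and 15.6%, against 7.52% and 39.1% of all genes). Their median was -0.04, a sign that turns positive once the median of all genes is subtracted. SLT2, the kinase gene of the cell wall integrity pathway, rose from 207 to 581 FPKM, and RLM1, its target transcription factor gene, from 55.0 to 85.0 FPKM. The structural wall protein gene SED1 rose from 4831 to 12147 FPKM, a large gain in absolute level, and FIT2, a mannoprotein gene of iron retention, from 441 to 939 FPKM. The transglycosylase gene UTR2 fell from 328 to 80.4 FPKM, the glucan-remodelling gene GAS1 from 1265 to 778 FPKM, and the stress sensor genes WSC3 and WSC4 fell as well (-0.95 and -0.72). The cell wall protein gene CWP2, among the most abundant in the table, was not called (28183 FPKM in the control and 37119.8 FPKM with doxycycline).

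Membrane and metal genes held further large changes. HSP30, which encodes a plasma membrane stress protein, rose from 293 to 2521 FPKM, and its relative YRO2 from 413 to 1478 FPKM. The small membrane protein genes PMP3 and PMP2 rose from 5179 to 8829 FPKM and from 20729 to 29094 FPKM. PMP1 was not called (28254 FPKM in the control and 23532 FPKM with doxycycline). The metallothionein genes CUP1-1 and CUP1-2 rose (from 8232 to 20064 FPKM and from 8284 to 20447 FPKM), but they are copies of the same sequence and are not independent. Of 19 zinc and copper genes 11 fell, among them IZH1 (from 447 to 96.9 FPKM), IZH2 (from 792 to 325 FPKM) and ZAP1, the zinc-responsive activator gene (from 18.4 to 8.31 FPKM). Sodium pump genes ENA1, ENA2 and ENA5, also close copies, fell (-0.89, -0.87 and -0.83). Of 25 phosphate genes 15 fell, with the transporter gene PHO84 going from 75.9 to 32.7 FPKM and the activator gene PHO4 at a log2 ratio of -1.11. PHM8 alone rose (from 114 to 347 FPKM). Of 31 iron genes 6 rose and 6 fell (19.4% each way, against 7.52% and 39.1% of all genes). The mannoprotein gene FIT2 and LSO1 were up (1.09 and 1.58) and the reductase gene FRE1 was down (-0.67).

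Genes of ribosome production made the broadest fall. Of 137 cytosolic ribosomal protein genes 0 rose and 126 fell, with a median log2 ratio of -1.09, or -0.78 from the median of all genes. Large-subunit genes fell in 71 of 76 cases (median -1.03), small-subunit genes in 52 of 56 (median -1.19) and genes of the acidic stalk in 3 of 5 (median -1.01). RPL29 had the deepest fall of the list, from 5177 to 866 FPKM. In absolute level the largest losses were those of RPL41B (from 99346 to 33477 FPKM) and RPL41A (from 94151 to 44795 FPKM), which encode a very short peptide of the large subunit. FPKM of such short genes depends strongly on the length correction.

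The 11 ribosomal protein genes without a call covered a range. RPL10 (-0.62), RPL3 (-0.46), RPS27B (-0.45), RPS21A (-0.40), RPL4A (-0.32) and RPL4B (-0.26) were lower without passing. RPS22B (-0.10), RPP1A (0.01), RPL39 (0.05) and RPP2B (0.10) stood near their control level. RPS28A was 20934 FPKM in the control and 27454 FPKM with doxycycline (0.39, q = 0.150 in the authors' deposited table). The Rap1 core motif used here was found within 300 bases in 22 of the 137 genes (16.1%) and in 3.06% of all genes. All 22 fell, at a median of -1.06, and of the 115 without it within 300 bases 104 fell, at -1.09. Within 600 bases the share was 57 of 137 (41.6%) against 6.41% of all genes. Some of the 115 thus hold the core farther upstream, so these groups do not separate genes with a Rap1 site from genes without.

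Assembly factors of the ribosome fell almost without exception. Of 74 large-subunit assembly genes 71 fell (median -1.02), and of 67 genes of the small-subunit processome 62 fell (median -0.97), with 0 rises in either list. DBP2 led the first list. HAS1, a helicase gene of both subunits, fell from 328 to 93.7 FPKM, and LSG1, a gene of the GTPase that acts on the large subunit in the cytoplasm, from 151 to 54.3 FPKM. In the second, the helicase gene DHR2 fell from 72.0 to 17.1 FPKM, the fibrillarin gene NOP1 from 1847 to 642 FPKM and the acetyltransferase gene KRE33 from 131 to 49.6 FPKM. The PAC element was in 64 of the 74 large-subunit windows (86.5%, against 19.0% of all genes). Of those 64 genes 62 fell (median -1.03), as did 9 of the 10 without it (median -0.99). The RRPE element (AAAATTTT) was in 50 of the 67 processome windows (74.6%, against 10.4%). Of those 50 genes 47 fell (median -0.99), as did 15 of the 17 without it (median -0.84). Over the table, PAC was in 27.1% of genes that fell and 13.5% of those that rose, and RRPE in 16.5% and 3.77%.

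The machinery that makes rRNA and tRNA fell with them. Of 37 genes of RNA polymerases I and III and their factors 29 fell (median -0.63), including the large polymerase I subunit genes RPA190 (from 158 to 67.4 FPKM) and RPA135 (from 323 to 134 FPKM). Of the 11 RNA polymerase II subunit genes 4 fell, which at 36.4% is near the 39.1% of all genes. They were RPB9 and the subunits RPB8, RPO26 and RPB5, which all 3 polymerases share. Of 43 tRNA modification genes 35 fell (median -0.75), with the methyltransferase gene TRM11 going from 156 to 46.7 FPKM. Of 20 genes of the RNA exosome and its nuclear helpers 16 fell, with the helicase gene MTR4 going from 146 to 55.1 FPKM.

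Translation factors and tRNA charging enzymes fell by smaller amounts. Of 45 translation factor genes 28 fell and 0 rose (median -0.57). ANB1, the anaerobic form of the factor eIF5A, fell from 375 to 105 FPKM, the elongation factor gene YEF3 from 2325 to 1177 FPKM and the recycling factor gene RLI1 from 228 to 103 FPKM. Of 33 aminoacyl-tRNA synthetase genes 20 fell and 1 rose, with the lysyl enzyme gene KRS1 going from 617 to 233 FPKM. The riser was MSF1, the mitochondrial phenylalanyl enzyme gene (from 23.9 to 32.8 FPKM). Mitochondrial ribosomal protein genes fell in 24 of 76 cases (31.6%, below the 39.1% of all genes), at a median of -0.31 against -0.30 for all genes. MRP8, a gene of uncertain function that is named for the mitochondrial ribosome, rose from 250.3 to 567 FPKM.

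Amino acid synthesis fell pathway by pathway. In arginine synthesis 9 of 12 genes fell (median -1.13), and the ornithine carbamoyltransferase gene ARG3 went from 38.9 to 5.36 FPKM and the argininosuccinate lyase gene ARG4 from 227 to 39.1 FPKM. All 12 measured genes of branched-chain synthesis fell (median -1.01), the dihydroxyacid dehydratase gene ILV3 from 918 to 209 FPKM and the isopropylmalate synthase gene LEU9 from 148 to 32.7 FPKM. In lysine synthesis 9 of 10 fell, in aromatic synthesis 12 of 15 and in histidine synthesis 4 of 6. HIS4, which encodes an enzyme of several steps, went from 110.0 to 41.3 FPKM. HIS3, mutant in the strain, was not called (266 FPKM in the control and 192 FPKM with doxycycline).

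The deepest fall of the table was in methionine synthesis. MET6, the methionine synthase gene, went from 193 to 19.2 FPKM, a 10.1-fold fall. Of 35 methionine and sulfate genes 23 fell and 1 rose (median -0.56), with the S-adenosylmethionine synthetase genes SAM1 (from 546 to 177 FPKM) and SAM2 (from 175 to 58.7 FPKM) among the falls. The sulfite pump gene SSU1 fell from 104 to 18.4 FPKM. The permease gene MUP1 fell (-1.48), and its low-affinity relative MUP3 rose (0.46). Of the 22 permease genes 13 fell, AGP1 from 182 to 34.8 FPKM and the general permease gene GAP1 from 149 to 47.8 FPKM. Among other amino acid genes 20 of 26 fell, including the serine hydroxymethyltransferase gene SHM2 (from 700.2 to 179 FPKM), the glutamate dehydrogenase gene GDH3 (from 166 to 40.6 FPKM) and the threonine aldolase gene GLY1 (from 229 to 61.4 FPKM). The Gcn4 element was in 9 of 12 arginine gene windows (75% against 8.07% of all genes), and those 9 had a median of -1.20. Over the table it was in 7.01% of genes that rose and 9.76% of those that fell. The searched Cbf1 (CACGTG) and Met31 (TGTGGC) elements were in 11 and 18 of the 35 methionine and sulfate windows. Genes with them fell less at the median, -0.47 with Cbf1 and -0.68 without, and -0.49 with Met31 and -0.57 without.

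Nucleotide synthesis genes were called lower in larger shares than all genes. Of 29 purine genes 22 fell and 1 rose (median -0.88). ADE17, of the last steps of purine synthesis, fell from 292 to 55.0 FPKM, and the adenine deaminase gene AAH1 from 306 to 59.9 FPKM. The gene that rose was the guanine deaminase gene GUD1 (from 10.8 to 15.9 FPKM). Of 19 pyrimidine genes 15 fell, with the uridine permease gene FUI1 going from 122 to 24.5 FPKM. URA3, where the labels place the activator construct, fell from 173 to 77.5 FPKM. Of 36 genes of NAD and thiamine synthesis 2 rose and 11 fell, a share of falls (30.6%) below the 39.1% of all genes, at the median of all genes (-0.30). In NAD synthesis from tryptophan, falls were found at BNA1 (from 255 to 42.1 FPKM), BNA5 (-1.90) and BNA4 (-1.33). Within the same list PNC1, of NAD salvage, and the thiamine synthesis gene THI4 (from 5.96 to 38.4 FPKM) rose.

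Of 36 fatty acid and phospholipid genes 24 fell and 0 rose (median -0.64). Both fatty acid synthase genes fell, FAS1 from 243 to 80.0 FPKM and FAS2 from 404 to 130.5 FPKM. The phosphatidylethanolamine methyltransferase gene CHO2 and the inositol transporter gene ITR1 had log2 ratios of -1.93 and -1.68. Of 29 sterol genes 18 fell, the lanosterol synthase gene ERG7 from 109 to 52.3 FPKM. Of 24 sphingolipid genes 13 fell and 4 rose, among the latter the ceramidase gene YPC1 (from 28.5 to 62.2 FPKM) and the lyase gene DPL1 (from 156 to 231 FPKM), whose enzymes break sphingolipids down.

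Genes of S phase and of mitosis fell in larger shares than all genes. Of 33 genes of the G1 to S transition 21 fell and 1 rose (median -0.73). The S-phase cyclin genes CLB6 (from 19.6 to 5.40 FPKM) and CLB5 (from 31.9 to 11.9 FPKM) and the G1 cyclin gene CLN1 (from 79.3 to 33.7 FPKM) fell. SVS1, a cell wall protein gene, was the member that rose (from 424 to 638 FPKM). Of 36 genes of G2 and mitosis 22 fell and 0 rose, with the mitotic cyclin genes CLB1 going from 165 to 44.1 FPKM and CLB2 from 47.0 to 19.6 FPKM. Of 34 replication genes 23 fell, the origin-licensing gene CDC6 from 15.2 to 4.93 FPKM and the helicase gene MCM7 from 48.2 to 20.9 FPKM. Kinetochore, cohesin and condensin genes fell in 18 of 43 cases (41.9%), close to the 39.1% of all genes. Histone genes were an exception, with 2 of 11 lower, the histone variant gene HTZ1 and the linker histone gene HHO1, and the core genes HHT1 and HTB1 not called (0.25 and 0.47).

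Genes of daughter cells and of mating fell. Of 19 daughter-cell and cell separation genes 13 fell (median -0.58), DSE1 from 495 to 90.0 FPKM, DSE3 from 121 to 30.9 FPKM and AMN1, an inhibitor of mitotic exit, from 416 to 167 FPKM. Of 39 pheromone response and a-cell genes 29 fell and 0 rose (median -0.69). HO, the endonuclease of mating-type switching, went from 40.9 to 5.28 FPKM, the cell fusion genes FUS1 and FUS2 from 65.1 to 21.5 FPKM and from 22.3 to 7.23 FPKM, and STE12, the transcription factor gene of the pathway, from 68.2 to 29.0 FPKM. The a-factor genes parted, with MFA2 down (from 54328 to 38884 FPKM) and MFA1 not called, as given above. MFA1 had the highest level of all genes in the table and made up 6.27% of the summed FPKM in the control and 8.62% with doxycycline. The pheromone element (TGAAACA) was in 18 of 39 windows (46.2%, against 7.05% of all genes). Of those 18 genes 16 fell (median -0.85), as did 13 of the 21 without it (median -0.63).

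Central carbon genes did not move together. Of 22 glycolytic genes 5 rose and 1 fell (median 0.21). The glucose-phosphorylating enzyme genes GLK1 (from 274 to 913 FPKM) and HXK1 (from 247 to 577 FPKM) rose, as did the regulatory enzyme genes PFK26 and FBP26 (0.72 and 0.80) and the minor pyruvate kinase gene PYK2 (0.64). The abundant enzymes of the lower pathway, which are known targets of Rap1, were not called. PGK1 was 1374 FPKM in the control and 1282 FPKM with doxycycline, ENO1 1071 FPKM in the control and 1000.4 FPKM with doxycycline and CDC19 3319 FPKM in the control and 3227 FPKM with doxycycline, all close to the control, with log2 ratios of -0.10, -0.10 and -0.04 against the median of -0.30. TDH3 was 12491 FPKM in the control and 16077 FPKM with doxycycline, and TDH genes are near-identical copies.

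Acetaldehyde dehydrogenase genes fell steeply, ALD6 from 827 to 164 FPKM and ALD5 from 212 to 66.9 FPKM, while the pyruvate decarboxylase gene PDC1 rose from 2999.7 to 5553 FPKM. The pyruvate carrier gene MPC3 fell from 179 to 27.1 FPKM. Of 33 TCA cycle genes 4 rose (12.1%) and 11 fell (33.3%), against 7.52% and 39.1% of all genes. The citrate synthase gene CIT1 rose (from 188 to 408 FPKM) and the malic enzyme gene MAE1 fell (from 154 to 53.2 FPKM). Of 40 nuclear genes of oxidative phosphorylation 3 rose (7.5%, near the share of all genes) and 2 fell (5%, below it). The cytochrome c forms went in opposite directions, CYC7 rising from 92.5 to 265 FPKM and CYC1 falling from 233 to 154 FPKM. Of 36 mitochondrial import genes 18 fell (50%) and 0 rose. Of 22 hexose transporter and sensor genes 6 rose (27.3%) and 7 fell (31.8%, below the 39.1% of all genes). HXT4 and HXT2 fell (-1.16 and -0.81), and the weakly expressed HXT9 rose (from 6.70 to 10.6 FPKM).

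Transcripts of the mitochondrial genome were higher with doxycycline. The table holds 21 of its genes, 18 higher, 2 lower and 1 listed at 0 in both groups, but 4 passed the level minimum. OLI1, an ATP synthase subunit gene, rose from 69.5 to 314 FPKM, the small rRNA gene 15S_RRNA from 10.3 to 36.7 FPKM and the large rRNA gene 21S_RRNA from 9.26 to 22.1 FPKM, while the intron-encoded AI1 was not called (5.33 FPKM in the control and 5.44 FPKM with doxycycline). Summed over the 21 genes the level was 107 FPKM in the control and 405 FPKM with doxycycline. Mitochondrial transcripts of yeast lack polyA tails, the feature by which RNA was selected, and whether they carried over evenly in both groups was not tested.

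General regulatory factors, which like Rap1 bind many promoters, had more falls than all genes. Of 21 general regulatory factors and regulators of ribosomal genes 15 fell and 0 rose (median -0.57), ABF1 from 20.6 to 8.41 FPKM, TBF1 from 35.2 to 15.0 FPKM and REB1 from 38.2 to 19.9 FPKM, all at low levels. Of 26 silencing and telomere genes 11 fell (42.3%, close to the 39.1% of all genes), with the deacetylase gene SIR2 going from 34.8 to 10.8 FPKM and the histone methyltransferase gene DOT1 from 30.9 to 16.5 FPKM. RRM3, a helicase gene that helps forks through telomeres and rDNA, fell from 31.5 to 12.3 FPKM. The TATA-binding protein gene SPT15 fell from 379.9 to 240.1 FPKM, and MOT1, whose protein removes it from DNA, from 15.2 to 6.41 FPKM. In signalling, RAS1 fell from 273 to 88.8 FPKM and YPK2, a kinase gene of the sphingolipid and membrane stress pathway, rose from 31.7 to 146 FPKM.

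Genes close to chromosome ends were called lower in a smaller share than those farther in, without a test of the difference. Of 64 genes within 10000 bases of an end, 9 rose (14.1%) and 13 fell (20.3%), at a median of -0.09. Of 83 genes from 10000 to 20000 bases, 9 rose and 22 fell, at -0.12. Of the 3757 genes more than 100000 bases away, 273 rose (7.27%) and 1521 fell (40.5%), at -0.32. Several of the genes at the ends are members of families with near-identical copies. Genes of the PAU group of anaerobic mannoproteins went both ways, PAU15 rising from 3.07 to 13.4 FPKM and PAU16 from 2.32 to 7.54 FPKM, and PAU18 falling from 55.6 to 37.2 FPKM. PAU15, PAU16, PAU3 (from 3.77 to 7.34 FPKM), PAU21 (from 2.25 to 5.47 FPKM) and PAU22 (from 2.69 to 5.25 FPKM) reached the level minimum only with doxycycline. Their inclusion favours a rise, and all are among the rises counted within 10000 bases of an end. HXT17 (from 5.40 to 3.36 FPKM), among the falls counted there, reached the minimum only in the control. Of the 27 anaerobic mannoprotein genes above the minimum 6 rose and 6 fell (22.2% each way, against 7.52% and 39.1% of all genes). The PAU genes that reached the minimum only with doxycycline are among these rises, so the filter favours that count. PAU5, which rose from 24.9 to 64.5 FPKM, was above the minimum in both groups. The YRF1 helicase copies YRF1-1, YRF1-5 and YRF1-8 were called lower (-0.51, -0.46 and -0.46). In the COS family 2 of 11 fell (18.2%, against 39.1% of all genes), COS10 (from 33.6 to 13.0 FPKM) and COS9. Spare mating-type genes stayed near their control level, HMLALPHA2 at 102 FPKM in the control and 98.9 FPKM with doxycycline, though its sequence is shared with MATALPHA2. The alpha-factor gene MF(ALPHA)1, of the other mating type, fell from 27.1 to 8.09 FPKM.

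**Figure D3:**
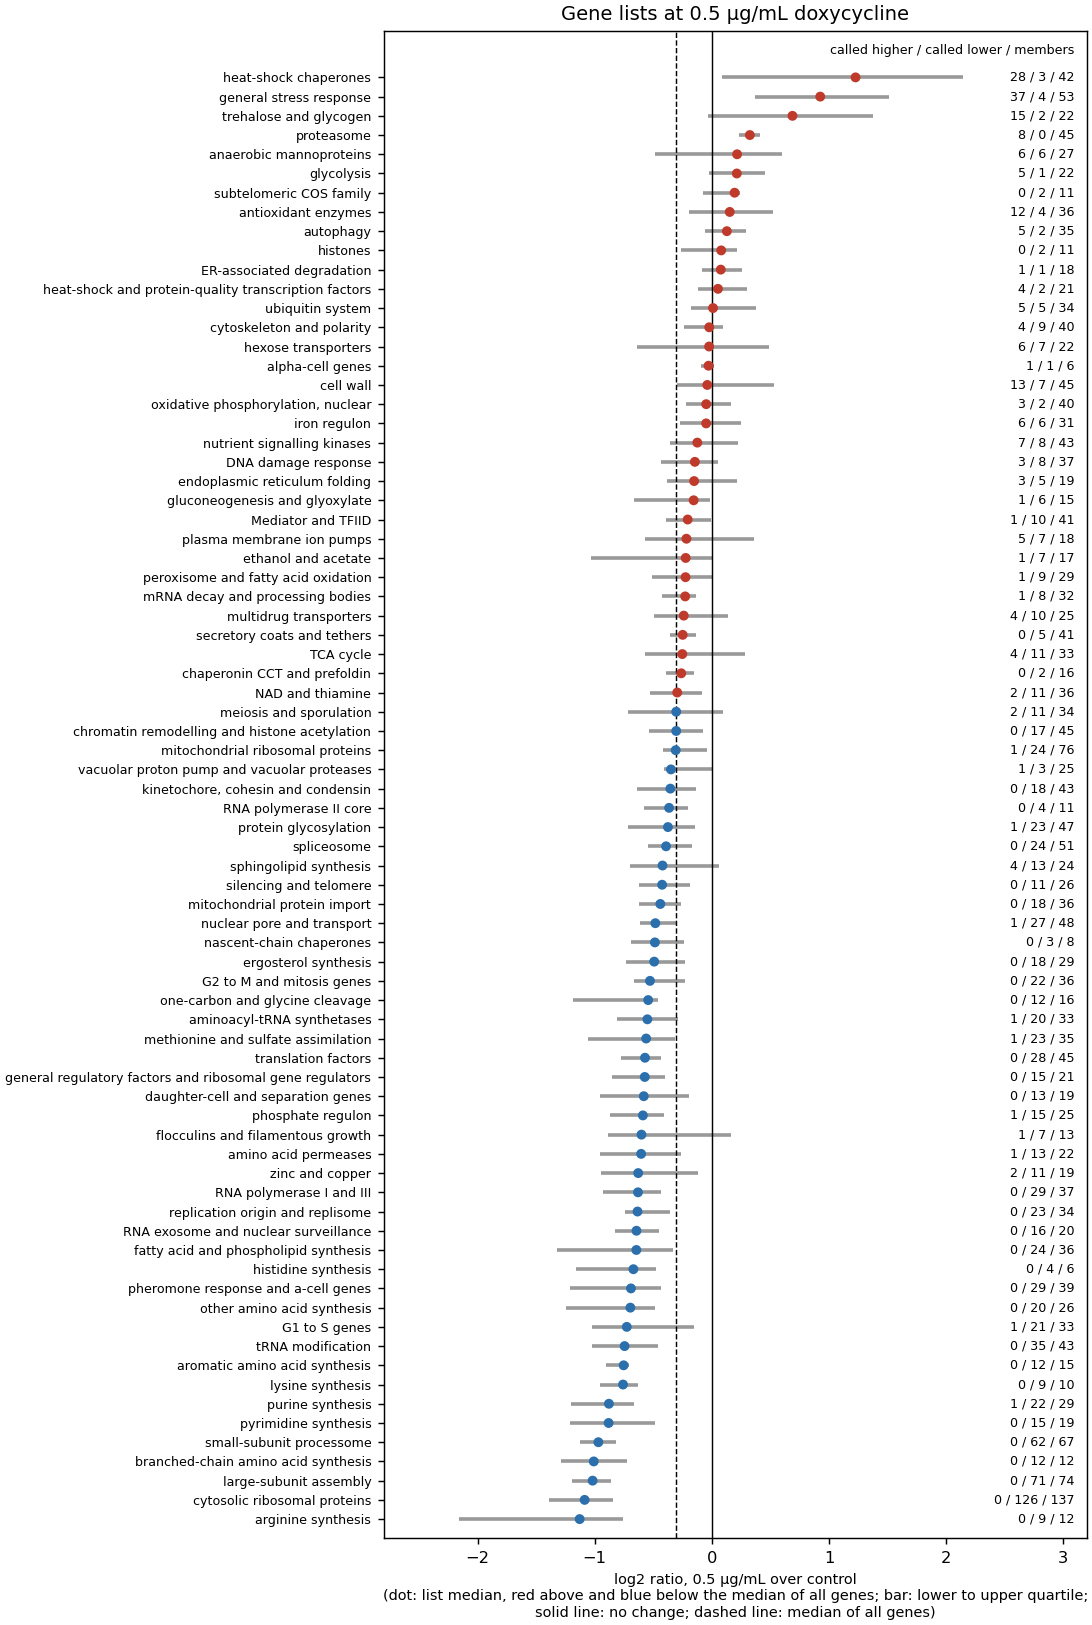
Median log2 ratio (dot) and quartiles (bar) of the members of 76 gene lists above the level minimum, sorted, with counts of called rises, called falls and members at the right; the dashed line marks the median of all genes at -0.30. Heat-shock chaperones (1.23), general stress (0.93) and trehalose and glycogen (0.69) stand at the top, and arginine synthesis (-1.13), ribosomal proteins (-1.09) and large-subunit assembly (-1.02) at the bottom.

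Set side by side, the plot of list medians shows a long lower slope and a short upper step. Medians were above 0 in 13 of the 76 lists and below 0 in 63. Measured from the median of all genes, 33 lists lay above and 43 below, so lists with medians between -0.30 and 0, such as oxidative phosphorylation or cell wall, change sign with that reference. In 33 lists no member rose. The lists hold 2314 of the 4988 genes, and genes may be in more than 1 list.

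The levels of the lists show how the measured RNA was shared out. Cytosolic ribosomal protein genes went from 31.3% to 20.3% of the summed FPKM, or from 607916 to 338798 FPKM. Much of that loss lay in RPL41B (from 99346 to 33477 FPKM) and RPL41A (from 94151 to 44795 FPKM). FPKM of these 2 very short genes depends strongly on the length correction. Large-subunit assembly genes went from 1.30% to 0.78%. In the other direction general stress genes went from 1.15% to 2.89%, heat-shock chaperones from 0.53% to 1.56%, cell wall genes from 4.30% to 6.32%, zinc and copper genes from 1.01% to 2.53%, and glycolysis from 2.79% to 3.92%. The zinc and copper list holds both CUP1 copies, and 11 of its 19 genes fell. The glycolysis and cell wall gains include abundant genes that were not called. They include TDH3, at 12491 FPKM in the control and 16077 FPKM with doxycycline, and CWP2, at 28183 FPKM in the control and 37119.8 FPKM with doxycycline. The proteasome went from 0.87% to 1.30%, with 8 of 45 members called. The 10 most abundant genes of the control held 27.7% of the sum there and 26.9% with doxycycline. These are shares of FPKM, which weigh a short transcript like a long one.

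**Figure D4:**
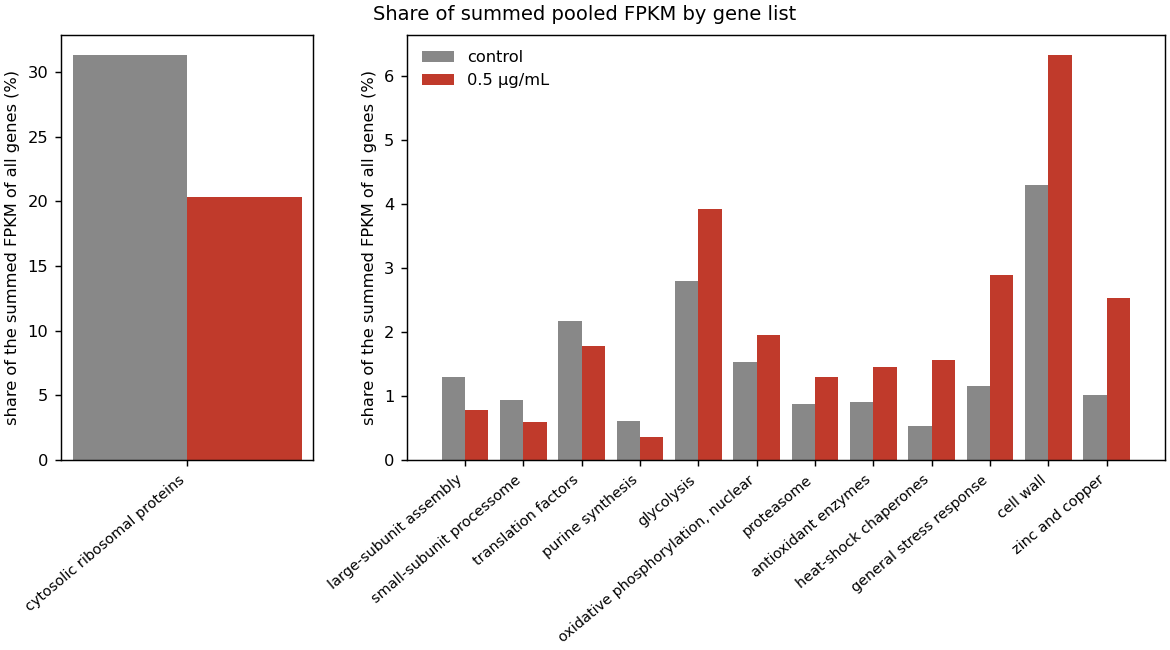
Share of the summed pooled FPKM of all listed genes (y, percent) held by gene lists in control (grey) and at 0.5 µg/mL (red), with ribosomal proteins on an axis of their own. Ribosomal proteins went from 31.3% to 20.3%, while stress, chaperone, cell wall, and zinc and copper lists took larger shares than in the control. The ribosomal protein share includes the very short genes RPL41A and RPL41B, which had the largest losses in level.

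Most ribosomal proteins of yeast are encoded by 2 gene copies, A and B, and the copies allow a comparison within a pair. The stalk pairs RPP1 and RPP2 were the least alike in coding sequence (69.2% and 73.6% identical), so they are not a comparison within 1 protein. Among 59 such pairs, both copies fell in 52, 1 copy in 6 and neither in 1, RPL4. The copies differed by a median of 0.26 in log2 ratio. In 28 pairs they lay within 0.25 of each other and in 6 pairs more than 1 apart. In RPS21 the B copy fell from 1508 to 374 FPKM, while the A copy, at 2845 FPKM in the control and 2151 FPKM with doxycycline, was not called. RPL16A fell from 967 to 188 FPKM and RPL16B from 2508 to 1263 FPKM. RPP1B and RPP2A, of the stalk, fell (-1.35 and -1.20), and their partners RPP1A and RPP2B were not called. In RPS22 the order was the other way round in abundance, with the abundant A copy falling (from 5789.6 to 2402 FPKM) and the minor B copy not called (618 FPKM in the control and 579 FPKM with doxycycline).

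The copy with the lower control level had the lower log2 ratio in 35 of the 59 pairs, and a relation to level was not tested. The share of the abundant copy thus grew in RPS21, from 65.4% to 85.2% of the pair, and in RPL16, from 72.2% to 87.0%. In the remaining pairs that share shrank, as in RPL13, from 60.7% to 46.7%, and in RPS19, from 52.7% to 44.0%. Coding sequences of the copies were 69.2% to 99.4% identical, and 9 pairs were above 97%, where reads can be assigned to the wrong copy. The 6 pairs with the widest gaps were 69.2% to 90.9% identical.

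**Figure D5:**
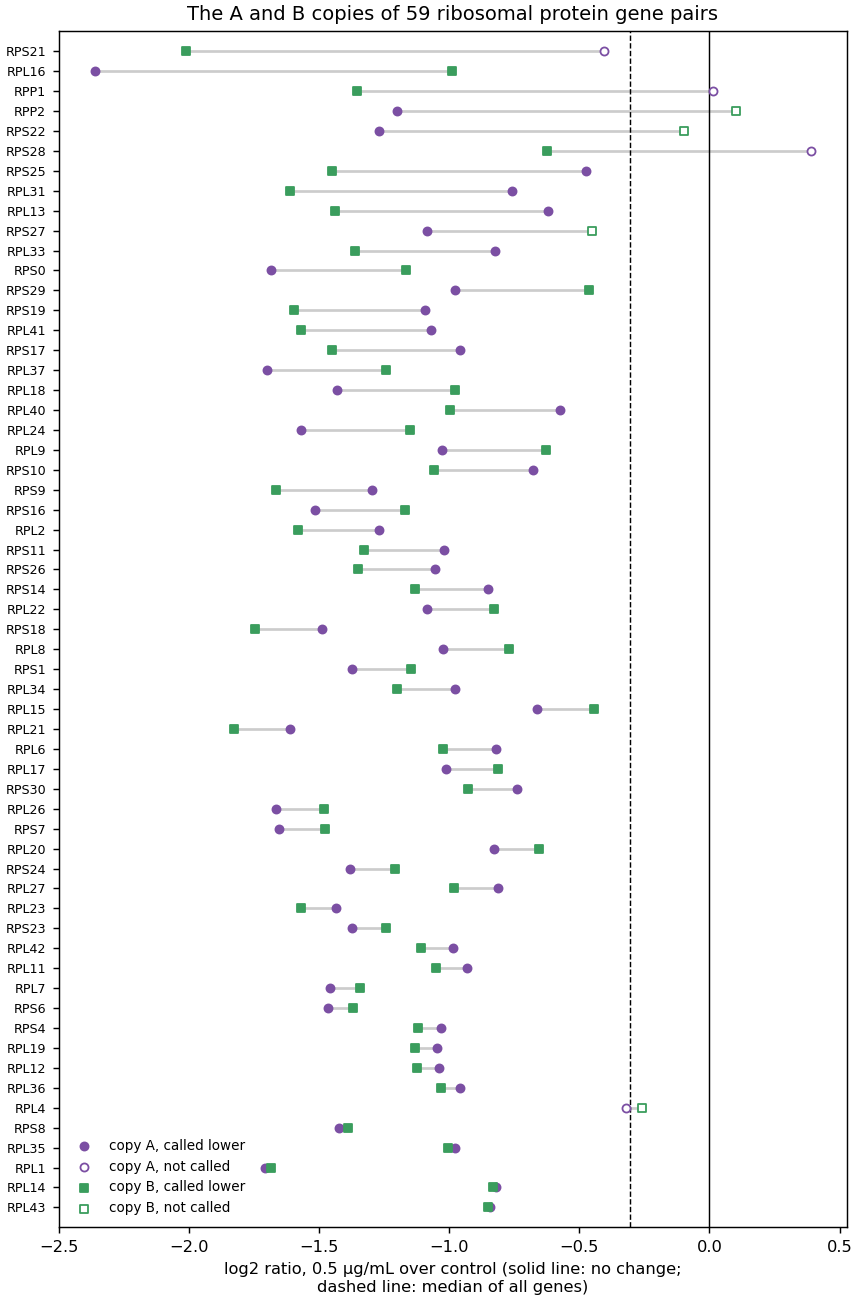
Log2 ratio of the A (circle) and B (square) copies of 59 ribosomal protein pairs, sorted by the gap between them, filled where called lower and open where not called. The gap is 1.61 in RPS21 at the top and the 6 widest exceed 1, while 28 pairs differ by less than 0.25.

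The levels at the lower doses, which were set against the same control samples, place the highest dose for a few genes. RAP1 was 33.3, 31.0 and 22.0 FPKM at 0.01, 0.1 and 0.5 µg/mL. HSP104 was 1116, 1771 and 1046 FPKM at these doses, so that its level at the highest dose was below that at 0.1 µg/mL. BTN2 showed the same order with a wider gap, at 676, 939.9 and 316 FPKM. HSP30 was 2674, 4292 and 2521 FPKM. Other genes had their most extreme level at 0.5 µg/mL. The daughter-cell gene DSE1 was 256, 159.6 and 90.0 FPKM, and the cyclin gene CLB1 106, 65.2 and 44.1 FPKM. RPL29 was 1601, 1032 and 866 FPKM, and OLI1 169, 276 and 314 FPKM. These tables were normalised separately and no difference between doses was tested.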

How the data were processed

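RNA was measured in 12 samples, of which 3 controls and 3 samples at 0.5 µg/mL doxycycline are used, grouped by their labels. Reads went through FastQC, Bowtie2 and Cuffdiff against build R64, per the submitters' processing notes, and no version, setting, strand handling or annotation is given in the sources used here. Levels as deposited pool the samples of a group and were taken as FPKM because the columns carry Cuffdiff's names; the control is named WT there. The log2 fold changes and q-values are those the authors deposited. The log2 ratio was computed again from the levels without a pseudocount and differed from the deposited log2 value by at most 1.27e-05. Replicates, depth and overlapping genes could not be checked. For this work 3 lines of the deposited file were emptied, and 2 gene names turned into dates were restored.

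A call is the authors' q-value below 0.05 in a gene with both levels above 0 and the higher at 5 FPKM or more. Alternatives were other level minimums, q below 0.01, an added 1 FPKM, and 3 rescalings. Lists come from textbook knowledge; members and lists were chosen with earlier results of these data known. Named genes are the 20 largest called rises and falls, the 10 largest gains and losses in level, up to 5 leading members and 2 opposite calls per list, the strain's genes and those at the level minimum; any other gene was named after its values were seen. Windows of 300 bases before the start codon came from the R64 genome for 4992 genes, where 5017 identifiers matched. Python 3.11.15, pandas 2.3.3, numpy 2.4.6 and Biopython 1.88 were used, and the counting steps were tested on simulated data.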

Additional observations from a re-analysis of the deposited data

Results flagged for a closer look

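Under the level minimum, 15 genes had a q-value below 0.05 in the authors' deposited table, 3 higher and 12 lower. The 3 that were higher than in the control are all of the mitochondrial genome: COX2 (3.70 FPKM against 1.63), AI2 (3.53 FPKM against 1.16) and COX3 (3.99 FPKM against 0.99). They drew attention because they carry a signal above the control outside the genes counted in the report. Their part in the rise of OLI1 and the rRNA genes was not tested.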

How the results depend on the processing

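The median log2 ratio of all genes lay between -0.31 and -0.30 under every level minimum tried, and calls numbered 367 to 378 upward and 1926 to 1962 downward. With q below 0.01 there were 272 rises and 1498 falls. Changes of at least 2-fold depend on the reference. Upward, the 133 became 226 after subtracting the median of all genes and 218 after subtracting that of genes outside the ribosomal protein list. Downward, the 513 became 205 and 214 under those settings, and 266 after scaling to equal summed FPKM. No called gene named here changed direction under these settings. Member counts at q below 0.01 differed by over 1.5 times for 39 of 152 counts, as for the proteasome, with 3 rises in place of 8. No paired analysis was possible because the table holds pooled levels, and for the same reason no sample could be left out. Depth is unknown, so how it limits weak genes cannot be given.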

Other observations

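Other gene groups had medians from -0.48 to -0.23, against -0.30 for all genes. Over all genes 7.52% rose and 39.1% fell. Of 41 genes of secretory coats and tethers 0 rose and 5 fell (12.2%), led by the tether subunit gene TRS20 (from 132 to 84.9 FPKM). Of 51 spliceosome genes 0 rose and 24 fell (47.1%), with the helicase gene PRP43, which also acts in ribosome assembly, going from 253 to 115 FPKM. Of 48 nuclear pore and transport genes 1 rose (2.08%) and 27 fell (56.25%), at the lowest of these medians. KAP123, the import receptor gene for ribosomal proteins, fell from 233 to 101 FPKM, and GSP2, a Ran gene, rose from 98.8 to 147 FPKM. Of 32 mRNA decay genes 1 rose (3.125%) and 8 fell (25%), the gene that rose being the decapping activator gene EDC2 (from 227 to 569 FPKM).

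Several groups held changes in both directions. In the DNA damage response 3 rose (8.11%) and 8 fell (21.6%) of 37, against 7.52% and 39.1% of all genes. The photolyase gene PHR1 (from 21.5 to 42.5 FPKM) and the DNA glycosylase gene MAG1 (from 35.9 to 69.9 FPKM) rose, while the ribonucleotide reductase genes RNR2 (from 187 to 79.9 FPKM) and RNR3 (from 15.5 to 8.17 FPKM) fell. Of 25 multidrug transporter genes 4 rose and 10 fell (the falls, at 40%, near the 39.1% of all genes), with the polyamine exporter gene TPO2 going from 313 to 816 FPKM and its relative TPO1 from 38.4 to 17.0 FPKM. Of 34 meiosis and sporulation genes 2 rose (5.88%) and 11 fell (32.4%), both below the shares of all genes (7.52% and 39.1%). They were all at low levels, such as SPS4 (from 10.9 to 3.71 FPKM). MBF1, a transcriptional coactivator gene outside the lists, rose from 393 to 2026 FPKM.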
